A study of Homo sapiens with 6 samples.

Results

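Dense distal clusters of open chromatin were chosen by position and by peak calls in the vector libraries. Overlapping peaks of all 6 libraries on chromosomes 1 to 22 and X were merged into 105441 regions. A region was a candidate when it was called as a peak in 3 of 3 vector libraries and its highest summit lay more than 2 kb from the 5′ end of every protein-coding gene in GENCODE version 44, which 43040 regions did. Candidates separated by at most 12500 bases were joined into 27901 stitched groups, most of them with a single region. The 155 groups with 8 or more regions were the dense clusters, and their 1518 regions are called members here. Because the choice required a call in every vector library, a member could be lost in the MyoD-deleted libraries but could not appear there for the first time, and the vector values of the members are a description rather than a finding.

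The assay was ATAC-seq, in which the Tn5 transposase cuts accessible DNA and the cut fragments are sequenced. RH30 is a rhabdomyosarcoma cell line of the fusion-positive kind, a childhood tumor of cells in the skeletal muscle lineage. All cells carried Cas9: 3 vector libraries came from cells with non-targeting scramble guides and 3 MyoD-deleted libraries from cells with guides against MyoD, a transcription factor of the muscle lineage encoded by MYOD1. All were grown in RPMI with fetal bovine serum, and frozen before the assay. The labels call the libraries of a group biological replicates but do not say whether a group was a pool or a clone, nor when cells were collected after transduction, and p-values measure the spread between these libraries. The labels name the line RH30, whereas the study's text in places describes the cells of this assay as RH30-SR, a derivative that carries an inhibitor of NF-κB, and which is right was not settled here. The open DNA of the vector libraries carried muscle marks: for all 6 muscle markers (MYOD1, MYOG, MYF5, DES, CHRNA1 and CDH15) every vector library had a called region less than 2 kb from the 5′ end, and for 0 of 15 markers of other lineages. In the MyoD-deleted libraries the same was true of 6 of the 6 muscle markers and of 4 of the 15 others (KRT5, EPCAM, GFAP and CDH5), and the part of the last in the results was not tested. Open DNA at MYOD1 does not check whether MyoD protein was lost, and no label or file measures it. Libraries held between 63068 and 80530 peaks, more in 2 of the 3 MyoD-deleted libraries than in any vector library, and the read depth behind a peak is unknown.

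Distal open regions are often enhancers, stretches of DNA where transcription factors bind and raise the activity of a gene that may lie far away. Where many lie close together they are called enhancer clusters, and in many cell types such clusters lie near genes that mark the cell's identity. MyoD is a basic helix-loop-helix factor that binds E-boxes, with a preference for the palindrome CAGCTG, and it can open chromatin at muscle enhancers. AP-1, a dimer of FOS and JUN proteins, binds the motif TGACTCA, or TGAGTCA as read on the opposite strand, and is found at distal open regions in a wide range of cells. Open DNA alone does not show that a region is an enhancer, nor which gene it serves, so each cluster is called here by the protein-coding gene whose 5′ end is nearest to most of its members.

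The sequences around single members show the kind of DNA involved. Each stretch below is 101 bases of the hg38 plus strand, centred on the summit of the member that changed most among the members past the test, in the 5 clusters with the largest decrease and then the 5 with the largest increase outside repeated DNA. Capitals mark every CAGCTG, every copy of the related E-box (CAGGTG or, on the other strand, CACCTG), every AP-1 motif and every motif of TEAD factors (CATTCC or, on the other strand, GGAATG).
SPTSSA: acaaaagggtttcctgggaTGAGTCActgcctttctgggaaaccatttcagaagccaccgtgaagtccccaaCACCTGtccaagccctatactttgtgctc
GNB1L: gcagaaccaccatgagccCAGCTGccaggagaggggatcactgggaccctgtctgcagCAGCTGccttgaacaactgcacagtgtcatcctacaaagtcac
ZNF280B: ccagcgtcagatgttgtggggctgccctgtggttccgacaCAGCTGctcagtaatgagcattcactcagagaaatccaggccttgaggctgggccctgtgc
BRF1: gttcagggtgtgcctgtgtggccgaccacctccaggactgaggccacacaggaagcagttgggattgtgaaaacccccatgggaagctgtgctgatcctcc
MYEOV: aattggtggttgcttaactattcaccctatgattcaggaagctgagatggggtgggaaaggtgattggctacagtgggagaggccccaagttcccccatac
OGFRL1: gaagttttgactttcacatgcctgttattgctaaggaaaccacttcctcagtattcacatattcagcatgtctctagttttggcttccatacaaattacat
MYO18A: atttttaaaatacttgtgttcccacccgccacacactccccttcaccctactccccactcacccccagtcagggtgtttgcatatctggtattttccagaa
UACA: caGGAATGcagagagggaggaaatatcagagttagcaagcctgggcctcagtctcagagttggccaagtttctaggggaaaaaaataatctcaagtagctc
LOXL1: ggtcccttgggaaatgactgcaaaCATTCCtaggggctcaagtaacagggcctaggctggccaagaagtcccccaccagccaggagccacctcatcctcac
FOS: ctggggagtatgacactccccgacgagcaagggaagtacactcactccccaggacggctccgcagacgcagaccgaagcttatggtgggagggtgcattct
The first 5 stretches come, in that order, from chr14:34043896-34043996, chr22:19912599-19912699, chr22:22375616-22375716, chr14:105332431-105332531 and chr11:69334118-69334218. The last 5 come from chr6:71479027-71479127, chr17:29158780-29158880, chr15:70800222-70800322, chr15:73941162-73941262 and chr14:75222309-75222409. The member in the GNB1L cluster held 2 copies of CAGCTG in these 101 bases and the member in the ZNF280B cluster held 1. The member of the SPTSSA cluster held TGAGTCA and CACCTG here, and those of the BRF1 and MYEOV clusters held none of these motifs in the stretch shown. In the stretches shown of the 5 members that were higher, 2 held the TEAD motif and 0 held CAGCTG. The motif counts below use a wider window, within 100 bases of the summit, and there the examples are less clearly split. In that window the higher members of the UACA and LOXL1 clusters did hold CAGCTG. The lower member of the BRF1 cluster held CAGCTG and the related E-box there, and that of the MYEOV cluster still held none of these motifs.

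The 155 dense clusters lay on 21 chromosomes, 28 of them on chromosome 1 and 17 on chromosome 2. A cluster held between 8 and 20 members, with a median of 9, over 23.3 to 129.6 kb (median 57.6 kb). By the position of the summit, 764 members (50.3%) lay in introns of protein-coding genes, 90 (5.93%) in exons and 664 (43.7%) outside protein-coding genes. In 45 clusters a single gene body held every member, and in 36 clusters no member lay in a protein-coding gene. The rule measured distance to the 5′ end of each gene as a whole, and 132 members (8.70%), in 62 clusters, lay within 2 kb of the 5′ end of some protein-coding transcript. Local background, the signal the peak caller expected from the neighbourhood, was 4.36 times the library's lowest background for the median member and 1.32 times for the median candidate that stood alone. This background divides the deposited fold enrichment, and for that reason members were compared by summit height, the pileup of fragments at the summit recovered from the deposited values, on a log2 scale relative to the median region called in all 6 libraries. A height of 0 is that of the median region.

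Members were high in the vector libraries and, by their median, lower after MyoD deletion. The median member height was 0.37, 0.41 and 0.45 with the vector and 0.31, 0.30 and 0.32 after deletion, and the groups did not overlap. The median height of the other candidates was −0.34, −0.42 and −0.40 with the vector and −0.37, −0.37 and −0.36 after deletion, where the groups overlapped. Of the 1518 members, 1352 were called in all 6 libraries and could be tested. Of these, 285 (21.1%) were lower and 176 (13.0%) were higher in the MyoD-deleted libraries at a limma adjusted p under 0.05, and 891 passed in neither direction. Over all 47847 regions tested, 12.8% were lower and 11.4% were higher. The nearest comparison is with candidates outside dense clusters, chosen in the same way, of which 5481 of 35879 (15.3%) were lower and 4854 (13.5%) were higher. The median change was −0.06 for members (quartiles −0.37 and 0.20) and 0.04 for those other candidates. The share of lower members depended on the centring: libraries of the MyoD-deleted group had a median log2 height 0.19 above that of the vector group before centring, and without centring 171 members (12.6%) were lower and 315 (23.3%) higher, against 8.03% and 24.7% of all regions. Removing the centring adds the same amount to every change, so the gap between members and other candidates was fixed in advance. Their median changes were then 0.13 and 0.23. The difference between members and other candidates was given no test. The lean to lower values also depended on which group chose the clusters. Under the same rule applied to the MyoD-deleted libraries, 17.2% of 1789 tested members were lower and 15.4% higher, with a median change of 0.005.

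The share of lower regions rose with the size of the stitched group, as the plot of changed regions by group size shows. It was 13.7% of 16552 tested candidates that stood alone, 15.9% in groups of 2 to 3, 18.4% in groups of 4 to 7 and 21.1% in the dense clusters. The share of higher regions moved little, from 13.9% and 13.4% to 12.7% and 13.0%. Other properties rose with group size too. The median height in the vector libraries went from −0.67 in candidates that stood alone to −0.30, 0.08 and 0.43, the median GC content near the summit from 49.3% to 50.7%, 53.2% and 55.7%, and the share with CAGCTG within 100 bases of the summit from 32.5% to 33.7%, 36.2% and 38.9%. The part of these properties in the rising share was not tested. Just below the limit of 8, the regions of the 115 groups of 7 had a median change of −0.003, and just above it those of the 52 groups of 8 had −0.08. Within the dense clusters the share did not rise further. It was 21.1% of 379 tested regions in groups of 8 and 20.3% of 580 in clusters of 10 or more, where the median change was −0.03.

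**Figure D1:**
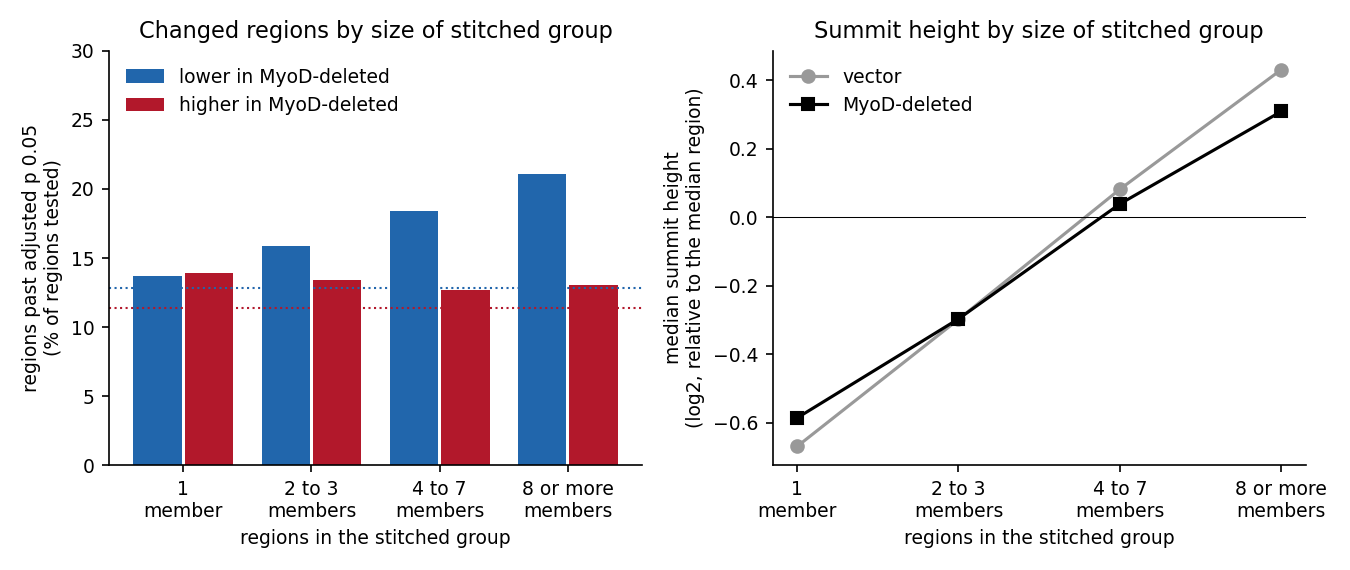
Left, share of tested candidate regions (%) that were lower (blue) or higher (red) in the MyoD-deleted libraries at a limma adjusted p under 0.05, by the number of regions in their stitched group, with dotted lines at the shares over all regions (12.8% and 11.4%). Right, median summit height (log2, relative to the median region) of the same regions as the mean of 3 vector or 3 MyoD-deleted libraries: blue bars rise from 13.7% to 21.1%, and the vector line climbs from −0.67 to 0.43.

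Few members were lost outright. The MyoD-deleted libraries had a peak at 1405, 1402 and 1432 of the 1518 members, and 52 members (3.43%) had a peak in none of them. Of all 53843 regions called in 3 of 3 vector libraries, 3.48% were lost in this sense, and of the other candidates 1779 of 41522 (4.28%). Lost members lay in 44 clusters, with 1 lost in 36 of them and 2 lost in 8, and no cluster lost more. In 54 clusters every member was called in all 3 MyoD-deleted libraries. Lost members were weak peaks: their median rank by fold enrichment in the vector libraries was percentile 11.3, against 46.8 for members called in every MyoD-deleted library, and their median vector height was −1.1 against 0.43. A peak that passes a threshold in some libraries and not in others can differ little in height, so a lost member is not shown to be closed DNA.

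Motifs at the summits split members by direction. CAGCTG lay within 100 bases of the summit (a window of 201 bases, matched on both strands) in 175 of the 285 lower members (61.4%), 307 of the 891 that passed in neither direction (34.5%) and 33 of the 176 higher members (18.8%). Among the 52 lost members 29 (55.8%) held it, and over all 105441 regions 25.1% did. TGACTCA or TGAGTCA, the AP-1 motif, had the opposite order, with 47 lower members (16.5%), 182 in neither class (20.4%) and 56 higher members (31.8%), and lay at 3 of the lost members (5.77%). Over all regions the share was 17.9%. The related E-box CAGGTG or CACCTG lay in 28.1% of lower and 9.66% of higher members (15.9% of all regions), and CATTCC or GGAATG, whose end bases may be shared with an E-box or an AP-1 motif, in 19.3% and 23.3% (17.3% of all regions). Candidates outside dense clusters showed the same order, with CAGCTG in 58.0% of lower and 16.2% of higher regions and the AP-1 motif in 14.9% and 34.8%.

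**Figure D2:**
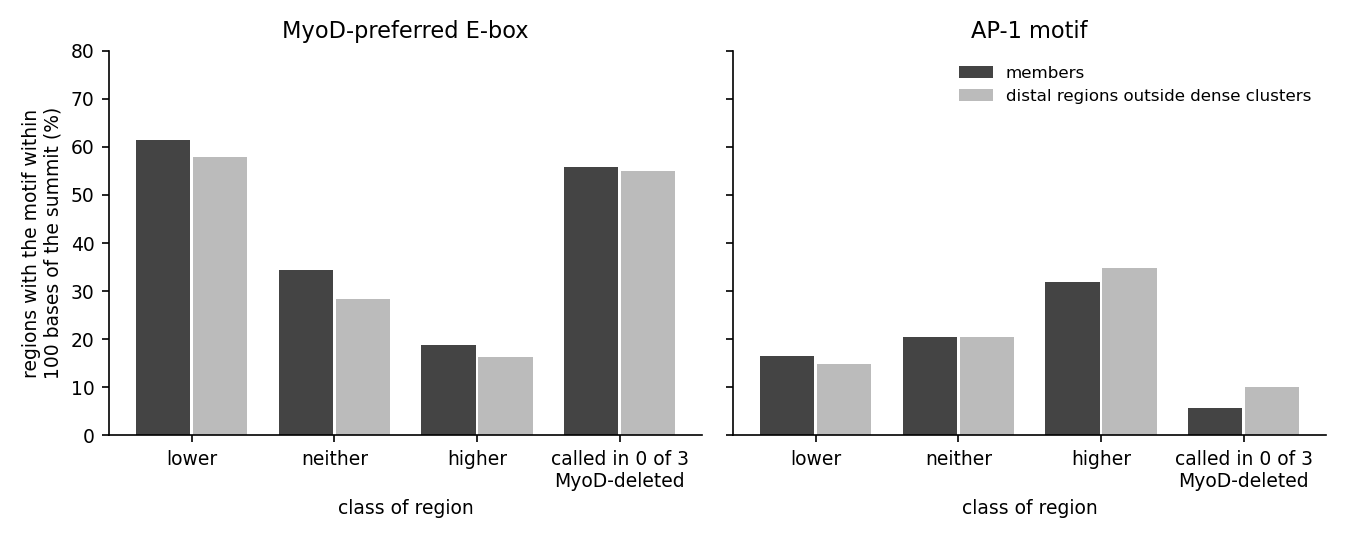
Share of regions (%) with CAGCTG (left) or the AP-1 motif TGACTCA or TGAGTCA (right) within 100 bases of the summit, for members of dense clusters (dark) and candidates outside them (light), by class of region. CAGCTG runs from 61.4% in lower members to 18.8% in higher ones, and the AP-1 motif from 16.5% to 31.8%.

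The split also followed the number of copies. Of tested members with no CAGCTG in the window, 110 of 837 (13.1%) were lower and 143 (17.1%) higher. With 1 copy, 117 of 398 (29.4%) were lower and 29 (7.29%) higher, and with 2 or more copies 58 of 117 (49.6%) were lower and 4 (3.42%) higher. Of tested distal regions outside the dense clusters with 0, 1 and 2 or more copies, 9.34%, 24.1% and 45.3% were lower and 16.5%, 7.75% and 4.10% higher. The order held inside clusters, where members share their neighbourhood. Of the 151 clusters that had tested members with and without CAGCTG, the mean change of those with it was the lower in 114 and the higher in 37, with a median difference of −0.28. For the AP-1 motif, members with it had the lower mean change in 49 of 129 clusters and the higher in 80, with a median difference of 0.09. By cluster, CAGCTG lay at 46.5% of the members of lower clusters, 32.5% in higher clusters and 37.0% in clusters past neither, and the AP-1 motif at 16.7%, 25.4% and 19.6%. These are descriptions of the letters near the summits, and binding was not measured here.

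Members of a cluster differed more from each other than clusters did. The spread of changes within clusters was 0.45 (SD), and the spread between clusters, after taking out what the within-cluster spread adds, was 0.20, or 16.3% of the variance of member changes. In groups of 4 to 7 the same share was 21% and in groups of 2 to 3 it was 27.2%. In 63 of the 155 clusters at least 1 member was lower and at least 1 other was higher. In 59 clusters there were lower but no higher members, in 26 the reverse, and in 7 no member passed in either direction. Among members called in all libraries, every change was negative in 9 clusters and positive in 2.

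As units, 43 of 154 fitted clusters (27.9%) were lower and 18 (11.7%) were higher by the mean height of their members called in all 6 libraries. Over all 2622 stitched groups with at least 3 such regions, 22.2% were lower and 18.0% higher. In 59 clusters (38.3%) all 3 MyoD-deleted libraries lay below all 3 vector libraries, and in 31 (20.1%) above them, against 26.4% and 23.3% of all stitched groups. The median change of a cluster was −0.08, and −0.01 for all groups. Without centring only 8 clusters (5.19%) were lower and 34 (22.1%) higher, both smaller shares than the 8.09% and 35.2% of all groups. All 18 higher clusters kept their call, which says little, since without centring every change was raised by the same 0.19. Of the 43 lower clusters, all still negative, 8 kept theirs (SPTSSA, GNB1L, ZNF280B, BRF1, MYEOV, OTOS, KLHL29 and H3-7). By the rank of fold enrichment, which is divided by local background, 4 clusters (2.60%) were lower and 3 (1.95%) higher, against 7.51% and 6.64% of all groups. Of the 43 lower clusters 3 kept their call, and of the 18 higher ones 1 did. Leaving out a library also rebuilt the clusters. Without vector replicate 3, 26 of 185 fitted clusters (14.1%) were lower. Without MyoD-deleted replicate 1, 27 of 153 (17.6%) were lower and 11 (7.19%) higher.

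**Figure D3:**
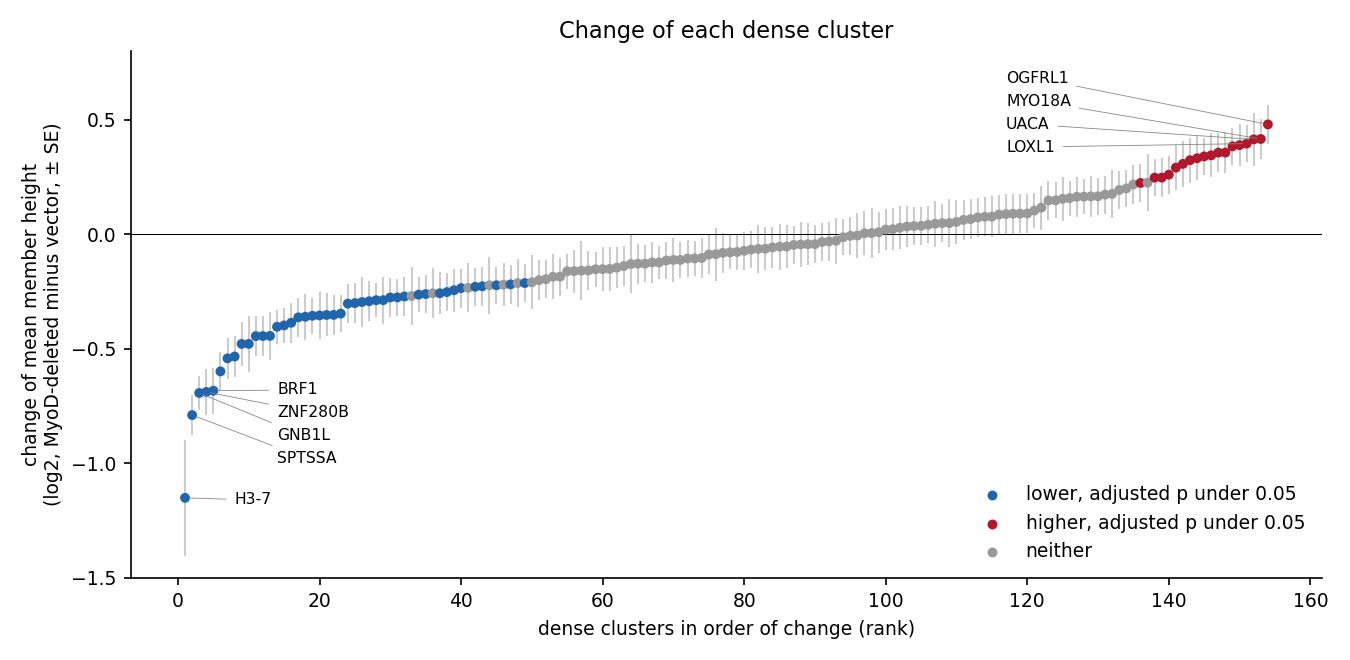
Change of the mean member height (log2, MyoD-deleted minus vector, ± SE, 3 libraries a group) for the 154 fitted dense clusters in order of change, with clusters past a limma adjusted p of 0.05 in blue (43 lower) and red (18 higher). The lowest is the H3-7 cluster at −1.15 and the highest the OGFRL1 cluster at 0.48.

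Of the clusters that were lower outside repeated DNA, the SPTSSA cluster fell furthest. Its 8 members at chr14:34022934-34061364 all lay in introns of EGLN3, a prolyl hydroxylase that marks the hypoxia factor HIF-1α for degradation, in the long gene body that GENCODE gives it. The nearest 5′ end of a protein-coding gene as a whole was 402 kb away, at SPTSSA, a subunit of the enzyme that starts sphingolipid synthesis, and the nearest of a protein-coding transcript 72.1 kb away. Mean member height was 0.65, 0.68 and 0.53 with the vector and −0.11, −0.18 and −0.22 after deletion. Every MyoD-deleted library lay below every vector library, and the change was −0.79 ± 0.09 (SE), limma adjusted p = 1.26e-05. On this centred scale the summits stood at 57.8% of their vector height, a figure that would be higher without centring. Of its 6 members called in all libraries 4 were lower, and 1 further member, at chr14:34049683-34050504 and with CAGCTG, was called in no MyoD-deleted library. The member shown by its sequence above had heights of 0.94, 0.51 and 0.36 in vector replicates and −0.69, −0.76 and −0.96 in MyoD-deleted replicates. Its vector values varied widely and its MyoD-deleted values all lay below them.

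The GNB1L cluster came next, with 9 members at chr22:19862584-19913063, 7 of them in introns of TXNRD2, the mitochondrial thioredoxin reductase. Mean member height was 1.35, 1.29 and 1.38 (vector) and 0.64, 0.64 and 0.66 (MyoD-deleted). The groups were far apart beside their spread, with a change of −0.69 ± 0.07 (SE), limma adjusted p = 1.02e-05. All 7 members called in all libraries had negative changes, 5 of them past the test, and 1 other was lost. The member at the far end, with 2 copies of CAGCTG, stood at 1.37, 1.49 and 1.49 in vector libraries against −0.33, −0.49 and 0 after MyoD deletion. Its change of −1.72 ± 0.14 (SE), limma adjusted p = 6.00e-07, was the largest in the cluster. The neighbour at chr22:19880666-19882268, the highest peak of the cluster, had a change of −0.18 ± 0.10 (SE), limma adjusted p = 0.203, which did not pass.

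The ZNF280B cluster lay at chr22:22357064-22432078 in the immunoglobulin lambda locus, where no protein-coding gene body held a member and VPREB1, a surrogate light chain of pre-B cells, was the nearest gene for some of them. Its height was 0.49, 0.72 and 0.65 with the vector and −0.15, −0.17 and 0.11 after deletion, with a change of −0.69 ± 0.10 (SE), limma adjusted p = 1.02e-04. CAGCTG lay at 9 of its 10 members, and 5 of the 8 tested were lower. The BRF1 cluster at chr14:105326785-105389372 lay wholly in PACS2, a sorting protein at contacts between the endoplasmic reticulum and mitochondria. Its height was 0.53, 0.78 and 0.61 in vector replicates and −0.21, −0.01 and 0.09 in MyoD-deleted replicates, and its change −0.68 ± 0.10 (SE), limma adjusted p = 1.10e-04. In both clusters all MyoD-deleted libraries lay below all vector libraries, and 4 of the 8 tested members in PACS2 were lower.

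In the MYEOV cluster (chr11:69280223-69334769), 6 of 8 members lay in the body of MYEOV, a gene named for its overexpression in myeloma. Member heights averaged 1.04, 1.02 and 0.94 (vector) and 0.41, 0.52 and 0.27 (MyoD-deleted), with a change of −0.60 ± 0.09 (SE), limma adjusted p = 9.12e-05. Its members ranged from −1.74 to 0.14: the member at chr11:69333433-69334769 stood at 1.25, 1.32 and 0.96 in vector libraries against −0.40, −0.52 and −0.77 after MyoD deletion, while the member at chr11:69297127-69298876 had a change of 0.14 ± 0.11 (SE), limma adjusted p = 0.426. Of the other clusters among the 10 lowest, OTOS (−0.54), KLHL29 (−0.53), ZDHHC19 (−0.48) and SLC38A10 (−0.48) each had 3 to 5 lower and 0 higher members. For the last 2 the call did not hold without centring (limma adjusted p = 0.0615 and 0.0589). In the intronic KLHL29 member at chr2:23420808-23421668 heights were 0.73, 0.67 and 0.81 with the vector and −0.73, −1.24 and −0.88 after deletion. That member, which held no CAGCTG, stayed called in every library although it fell by 1.68 on the log2 scale (SE 0.17).

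The H3-7 cluster had the lowest change of all, −1.15 ± 0.25 (SE), limma adjusted p = 0.00244, but it lay over repeated DNA. Its 9 members at chr1:143212468-143264732 were 643 kb or more from the nearest protein-coding 5′ end, had a GC content of 36.8% and no CAGCTG, and 7 of them shared at least 25% of their 20-base words with another member. Mean member height was 0.72, 0.44 and −0.29 in vector replicates and −0.17, −1.06 and −1.35 in MyoD-deleted replicates. The replicates were far apart and the groups overlapped, since vector replicate 3 lay below MyoD-deleted replicate 1. Reads cannot be placed surely in such DNA, and the same holds for 3 other dense clusters: CCDC200 at chr17:43233116-43334609, over the array of U2 small nuclear RNA genes (11 of 17 members share such words), TPTE at chr21:8433657-8467096, over a ribosomal RNA unit, and ENSG00000284209 at chr16:34572567-34595827, near a centromere. Neither CCDC200 (−0.15 ± 0.10 (SE), limma adjusted p = 0.212) nor TPTE (−0.09 ± 0.12 (SE), limma adjusted p = 0.568) passed, and ENSG00000284209 had 2 members in all libraries and was not fitted. Without these 4 clusters 42 of 151 were lower and 18 higher.

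The OGFRL1 cluster rose furthest. Its 9 members at chr6:71445919-71513376 lay between protein-coding genes, 158 kb or more from the 5′ end of OGFRL1, a relative of the opioid growth factor receptor, and overlapped the long non-coding RNA LINC01626. The mean height of its members was 0.33, 0.15 and 0.16 (vector) and 0.70, 0.64 and 0.73 (MyoD-deleted). All MyoD-deleted libraries lay above all vector libraries, with a change of 0.48 ± 0.09 (SE), limma adjusted p = 5.14e-04, or 139% of the vector height on the centred scale. Without centring the change was 0.67. Of 8 tested members 5 were higher, led by the member at chr6:71478668-71479517 with heights of 0.97, 0.34 and 0.22 in vector libraries against 1.76, 1.82 and 1.83 after MyoD deletion. A single member, at chr6:71457813-71458918, was lower (−0.81 ± 0.17 (SE), limma adjusted p = 0.00198), and it was also the only tested member past the threshold with CAGCTG in this cluster.

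The MYO18A cluster (chr17:29111648-29168829) lay wholly in the gene for an unconventional myosin of the Golgi. Its members averaged 0.08, 0.04 and 0.18 with the vector and 0.47, 0.57 and 0.50 after deletion, with a change of 0.41 ± 0.09 (SE), limma adjusted p = 0.00145. It was the higher cluster whose call held by the rank of fold enrichment too (limma adjusted p = 0.0384). Among its higher members, that at chr17:29131766-29132482 held CAGCTG. The LOXL1 cluster (chr15:73922522-73992635) spanned LOXL1, a lysyl oxidase that crosslinks elastin. Its mean member height was 0.36, 0.41 and 0.53 in vector replicates and 0.77, 0.86 and 0.85 in MyoD-deleted replicates, with a change of 0.39 ± 0.08 (SE), limma adjusted p = 0.00158. The cluster's change rested largely on an intronic member at chr15:73940555-73941901, whose heights were −1.21, −2.0 and −1.34 (vector) and 0.23, 0.90 and 0.25 (MyoD-deleted) (change 1.98 ± 0.23 (SE), limma adjusted p = 1.05e-05), the largest increase of any member. Only 1 other member of the 8 tested was higher, at STOML1, and an intronic LOXL1 member was lost.

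The COL5A1 cluster (chr9:134585819-134656745) lay upstream of and in COL5A1, which encodes a chain of the fibrillar type V collagen. The members' mean was 0.68, 0.70 and 0.76 in vector libraries against 1.04, 1.23 and 1.03 after MyoD deletion. The groups did not overlap and the change was 0.38 ± 0.08 (SE), limma adjusted p = 0.00191. The 5 higher members all lay upstream of the gene, between 15.1 and 49.3 kb from its 5′ end, while the highest peak, in its body 3.30 kb from the 5′ end, had a change of 0.23 ± 0.10 (SE), limma adjusted p = 0.104. The higher member at chr9:134626336-134627193 held CAGCTG. A member 20.9 kb upstream was called in a single MyoD-deleted library. The CD9 cluster (chr12:6161405-6216662; CD9 is a tetraspanin of the cell surface) changed by 0.36 ± 0.09 (SE), limma adjusted p = 0.00524, and its intronic member at chr12:6215594-6216662 stood at 0.97, 1.26 and 1.29 with the vector and 2.35, 2.34 and 2.30 after deletion. The UACA (0.41), IPO9 (0.36), MAP4K3 (0.34) and CCR7 (0.34) clusters were also higher. In the CCR7 cluster this was the sum of unlike members: 1 of 8 rose by 1.97, 1 in an exon of CCR7 fell by 0.61 on the log2 scale and 6 did not pass. The IPO9 cluster, all of it inside NAV1, was named for 2 reasons, since it was higher and also lost 2 of its 11 members, those 2 being weak peaks with vector heights between −1.72 and −2.04. The higher IPO9 members at chr1:201676052-201676975 and chr1:201713261-201714054 held CAGCTG. The calls for UACA and MAP4K3 were each lost without 1 library (UACA without vector replicate 2, adjusted p = 0.0512, and MAP4K3 without MyoD-deleted replicate 1, adjusted p = 0.0513, in limma).

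**Figure D4:**
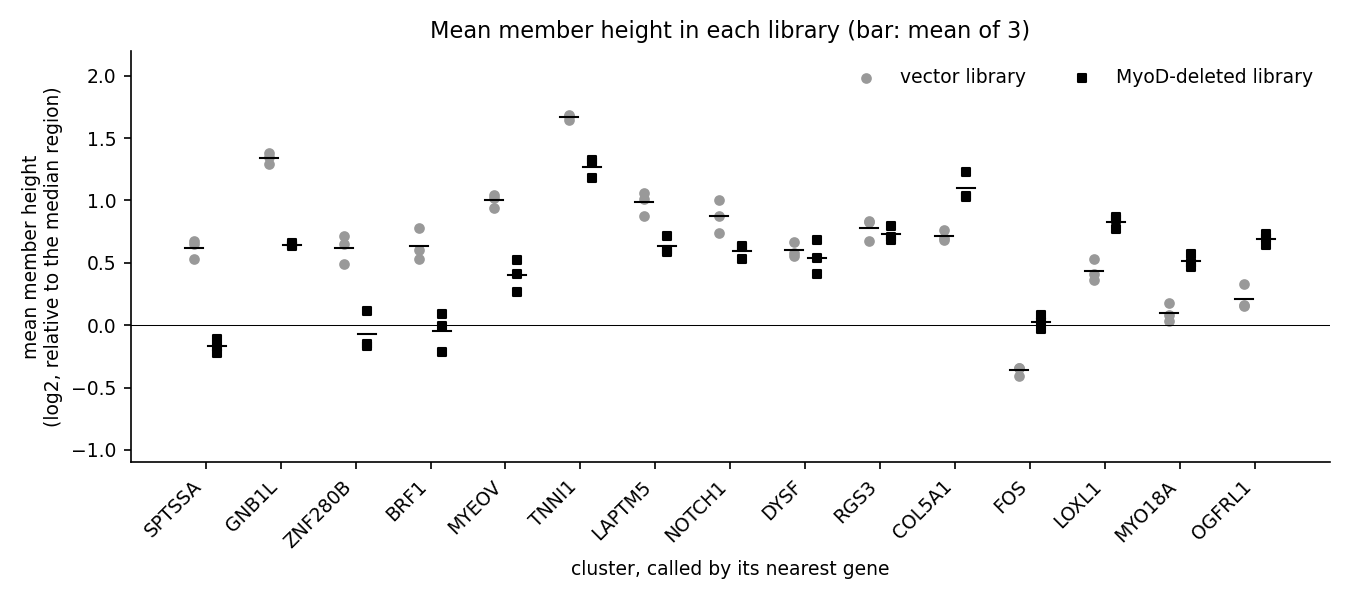
Mean height of the members called in all 6 libraries (log2, relative to the median region) for 15 named dense clusters, with 3 vector libraries (grey circles), 3 MyoD-deleted libraries (black squares) and the mean of each group (bar). The groups stand apart from SPTSSA to NOTCH1 with the MyoD-deleted libraries lower and from COL5A1 to OGFRL1 with them higher, and overlap for DYSF and RGS3.

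Of the 47 sarcomere and muscle effector genes listed, 38 had at least 1 candidate region in the body or nearest to the 5′ end, and 3 (TNNI1, TNNT2 and DYSF) were touched by a dense cluster. None of the 22 core myogenic and fusion-positive rhabdomyosarcoma regulators, MYOD1 and MYOG among them, had a dense cluster, although 9 of the 22 had a group of 4 to 7 (that of MYOD1 had 5). None of 42 developmental transcription factors had one either, while 1 of 32 mesenchymal, AP-1 and TEAD-YAP genes (FOS) and 2 of 22 IGF, FGF, PDGF and Notch genes (NOTCH1 and DLK1) did. No share for all protein-coding genes was set beside these counts, so whether they are low or high for such lists was not tested. Dense clusters were few, and the absence of one from a list does not set its genes apart. These lists were drawn up with earlier results of these data known.

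The TNNI1 cluster (chr1:201383619-201463285) was lower as a unit, with 4 of its 12 members lower and 1 higher. All 12 were called in all 6 libraries, across LAD1 and TNNI1, with 1 nearest to TNNT2. TNNI1 encodes troponin I of slow skeletal muscle and TNNT2 troponin T of heart and embryonic skeletal muscle, subunits of the complex that lets calcium switch on contraction. Mean member height was 1.64, 1.69 and 1.68 in vector replicates and 1.31, 1.18 and 1.32 in MyoD-deleted replicates. All MyoD-deleted libraries lay below all vector libraries, with a change of −0.40 ± 0.07 (SE), limma adjusted p = 7.61e-04. The decrease was concentrated in 3 neighbouring members in introns of TNNI1, 3.22 to 7.20 kb from its 5′ end, of which the first lay 0.496 kb from the 5′ end of a shorter TNNI1 transcript. This first member stood at 2.07, 1.91 and 1.95 (vector) and 0.65, 0.33 and 0.63 (MyoD-deleted), with a change of −1.44 ± 0.12 (SE), limma adjusted p = 6.00e-07. The next 2 changed by −1.17 and −1.41, and of the 3 only the middle one held CAGCTG. A member in an exon of LAD1, chr1:201395874-201397953, was lower as well (−0.60 ± 0.09 (SE), limma adjusted p = 1.58e-04). Near PHLDA3, on the other side, the member at chr1:201456483-201457340 was higher, with heights of 0.17, 0.40 and 0.43 in vector libraries against 1.36, 1.10 and 1.15 after MyoD deletion (change 0.87 ± 0.13 (SE), limma adjusted p = 1.18e-04). Local background in this cluster was 16 times the lowest, and by the rank of fold enrichment the cluster's change was 0.14 (limma adjusted p = 0.353) in the other direction. Without centring the change was −0.21 (adjusted p = 0.156), so that the call rests on centred height.

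The DYSF cluster (chr2:71460385-71510732) lay in introns of DYSF, which encodes dysferlin, a protein of muscle membrane repair. The mean height was 0.67, 0.55 and 0.58 with the vector and 0.41, 0.68 and 0.54 after deletion, and the groups overlapped (change −0.06 ± 0.09 (SE), limma adjusted p = 0.628). Members moved in opposite directions: that at chr2:71460385-71461265 changed by −0.63 ± 0.15 (SE), limma adjusted p = 0.00564, and that at chr2:71482024-71482817 by 0.92 ± 0.15 (SE), limma adjusted p = 2.57e-04. The member at chr2:71469440-71469940, with vector heights of 0.18, 0.42 and 0.54, was called in no MyoD-deleted library. The NOTCH1 cluster (chr9:136558084-136645526) lay between NOTCH1, a receptor that restrains muscle differentiation, and EGFL7, a secreted factor of blood vessels. Its mean member height was 0.74, 0.87 and 1.01 in vector replicates and 0.63, 0.63 and 0.53 in MyoD-deleted replicates, with a change of −0.28 ± 0.09 (SE), limma adjusted p = 0.0188, and 4 of 10 tested members were lower, the lowest 2 of them (−0.77 and −0.70) nearest to EGFL7. The call was lost without vector replicate 2, vector replicate 3 or MyoD-deleted replicate 3 (adjusted p from 0.0523 to 0.0928 in limma). The cluster between DLK1, a Notch-related regulator of differentiation, and RTL1 (chr14:100790629-100835769) overlapped the imprinted RNA MEG3. It changed by −0.27 ± 0.09 (SE), limma adjusted p = 0.020 from heights of 0.50, 0.38 and 0.58 (vector) and 0.20, 0.20 and 0.25 (MyoD-deleted), and that call was lost without vector replicate 3, MyoD-deleted replicate 1 or MyoD-deleted replicate 2 (adjusted p from 0.0560 to 0.0830 in limma). Neither NOTCH1 nor RTL1 passed without centring.

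The FOS cluster (chr14:75213106-75267879) lay upstream of FOS, a subunit of AP-1, and none of its members was in a gene body. Heights averaged −0.34, −0.41 and −0.34 in vector libraries against 0.03, −0.03 and 0.08 after MyoD deletion, and the change was 0.39 ± 0.09 (SE), limma adjusted p = 0.00414. The 3 higher members lay 44.1 to 48.2 kb from FOS or 45.7 kb from TMED10, all of them low peaks in the vector libraries, such as that at chr14:75234227-75234993, with the AP-1 motif, with heights of −1.05, −1.72 and −1.46 with the vector and −0.33, −0.46 and −0.25 after deletion. The highest peak of the cluster, at chr14:75258664-75259813 and with CAGCTG, had a change of −0.01 ± 0.11 (SE), limma adjusted p = 0.963.

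**Figure D5:**
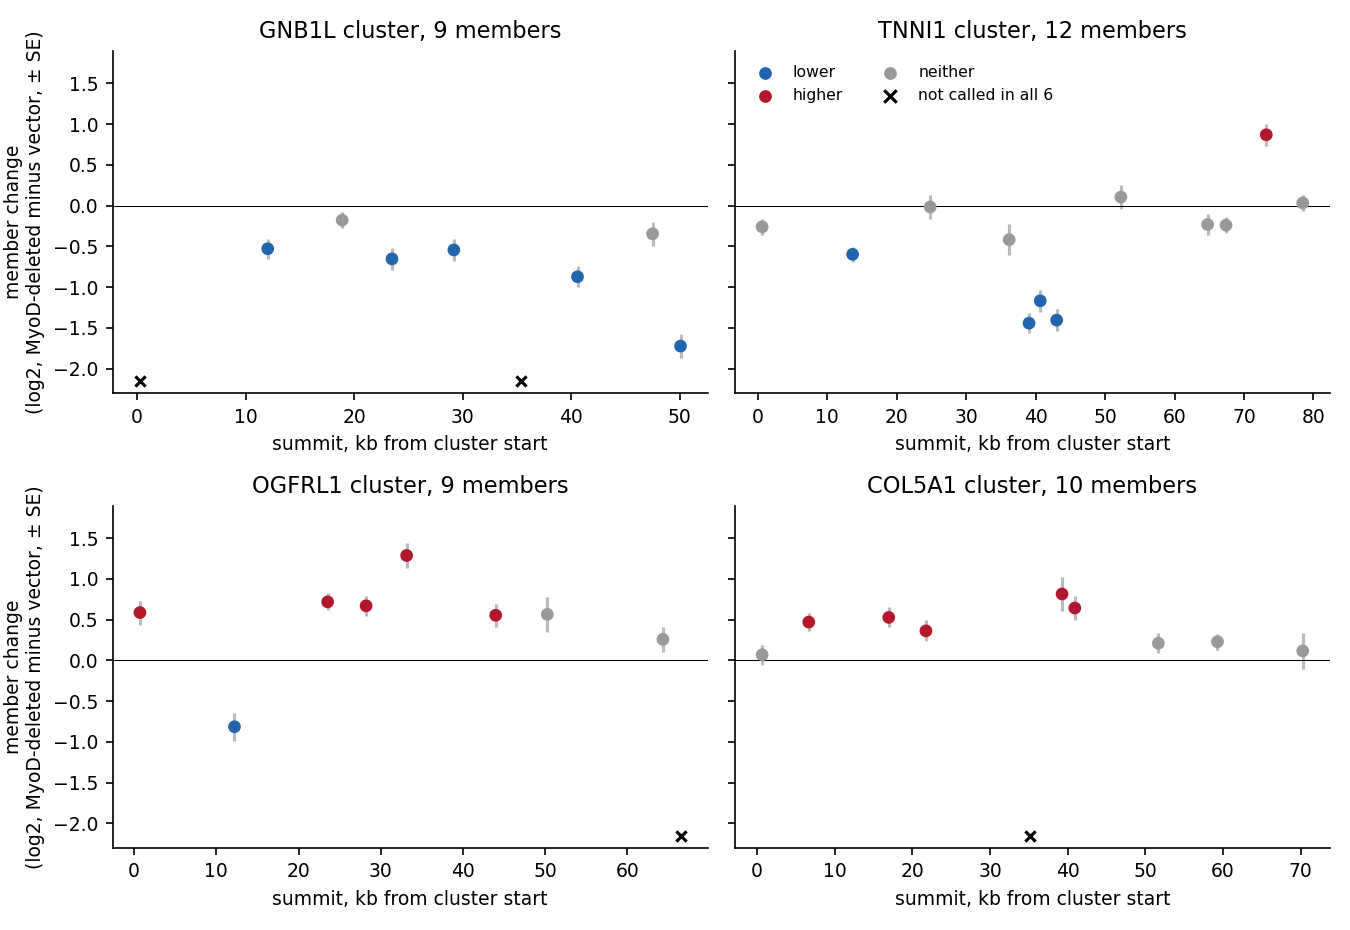
Change of each member (log2 height, MyoD-deleted minus vector, ± SE, 3 libraries a group) against the distance of its summit from the start of the cluster (kb) in the GNB1L, TNNI1, OGFRL1 and COL5A1 clusters, in blue or red where past a limma adjusted p of 0.05, with crosses for members not called in all 6 libraries. In the TNNI1 cluster 3 neighbouring members lie between −1.44 and −1.17 while a member near the far end lies at 0.87.

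Of the 10 clusters with the most members, 1 passed the test as a unit. It was the largest, with 20 members over 127 kb at chr1:30697432-30824890, and lay across LAPTM5, a lysosomal membrane protein of blood cells, and MATN1, a cartilage matrix protein, and overlapped the microRNA gene MIR4420. The mean over members was 0.88, 1.02 and 1.06 in vector replicates and 0.59, 0.60 and 0.72 in MyoD-deleted replicates, with a change of −0.35 ± 0.08 (SE), limma adjusted p = 0.00401, and 7 of its 18 tested members were lower and 0 higher, 6 of the 7 with CAGCTG. The final 3 members, on the side away from MATN1, did not pass, with changes of 0.19, 0.01 and 0.13. Without centring the change was −0.15 (limma adjusted p = 0.309). Of the other 9 with the most members none passed the test. The FSCN1 cluster (19 members, chr7:5549218-5678848), which also covers ACTB, the gene of cytoplasmic β-actin, and RNF216, had a change of −0.19 ± 0.08 (SE), limma adjusted p = 0.0868. It had 6 lower and 2 higher members, among the first an exonic RNF216 member with CAGCTG at chr7:5620266-5621227 with heights of 2.02, 2.35 and 2.33 (vector) and 1.02, 0.99 and 1.42 (MyoD-deleted). Without vector replicate 1 this cluster did pass (change −0.25, adjusted p = 0.0219 in limma). The RGS3 (18 members, −0.05), PGS1 (16, 0.04), TXN2 (15, 0.17), ATOH8 (15, −0.15), VPS37B (15, −0.19) and FOXO6 (15, −0.16) clusters had 0 to 4 lower and 0 to 5 higher members each. In the PGS1 cluster 5 members were higher, and that at chr17:78416151-78417059 held CAGCTG (change 0.54 ± 0.15 (SE), limma adjusted p = 0.0146). An intronic member at chr17:78412526-78413957, also with CAGCTG, was lower, with heights of 1.38, 1.09 and 1.18 in vector libraries against 0.02, −0.11 and 0.08 after MyoD deletion.

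Some genes had more than 1 cluster. In PRKCH, a protein kinase C, the cluster at chr14:61202519-61270291 was lower (−0.44 ± 0.09 (SE), limma adjusted p = 0.00109) and the one at chr14:61514194-61628816, with 4 of its 16 members in PRKCH and the others outside it on the side of HIF1A, was not past the test (0.08 ± 0.09 (SE), limma adjusted p = 0.445). In TSPAN9, a tetraspanin, the cluster of 14 members did not pass (−0.12 ± 0.08 (SE), limma adjusted p = 0.273), with 5 lower and 3 higher members, and its neighbour of 8 members was lower (−0.40 ± 0.07 (SE), limma adjusted p = 6.72e-04), with 5 lower members and 0 higher. These genes, and those in the next sentence, were chosen after their values were seen, and differences between neighbouring clusters were not tested. Lower clusters also lay at CDON (−0.35 ± 0.09 (SE), limma adjusted p = 0.00545), a cell surface receptor that promotes muscle differentiation, at LFNG (−0.30 ± 0.09 (SE), limma adjusted p = 0.0107), which modifies Notch, and at RBM20 (−0.44 ± 0.11 (SE), limma adjusted p = 0.00406), a splicing factor of titin. None of the lower clusters of this paragraph passed without centring.

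By share of members lost, the 5 leading clusters were ENSG00000284209 and TMEM123 (2 of 8 each), CBLC (2 of 9), LMX1B (2 of 10) and IPO9 (2 of 11). The LMX1B cluster (chr9:126501832-126558671), near a homeobox gene of limb and kidney, was also lower by height (−0.36 ± 0.09 (SE), limma adjusted p = 0.00397), with 3 lower members that all held CAGCTG, though not without centring (limma adjusted p = 0.261). The TMEM123 cluster (chr11:102390804-102453504) changed by −0.29 ± 0.10 (SE), limma adjusted p = 0.0347, a call lost on leaving out any library but MyoD-deleted replicate 3 (adjusted p up to 0.173 in limma) and without centring (adjusted p = 0.566). The CBLC cluster (chr19:44741718-44801396), beside BCL3, a cofactor of NF-κB, did not pass (change 0.03 ± 0.09 (SE), limma adjusted p = 0.840), and 0 of its 6 tested members passed.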

How the data were processed

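RH30 cells with Cas9 and scramble guides (vector, 3 libraries) or MyoD guides (MyoD-deleted, 3 libraries) were assayed by ATAC-seq. According to the methods and labels, the authors mapped paired reads to hg38 with Rsubread, kept proper pairs with GenomicAlignments and called peaks in each library with MACS2, without pooling. Tool versions (other than bcl2fastq 2.20) and any Tn5 offset correction are not given in the sources used here. The deposited narrowPeak values are fold enrichment at the summit (a ratio to local background), −log10 p, −log10 q and an integer score, for peaks only. Library totals were not among these values, so depth per value is unknown.

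Fold enrichment and −log10 p together fix the pileup and local background of each peak, and 100% of peaks were recovered to within 0.02 in −log10 p. Summit height was the log2 ratio of that pileup to the lowest background in its library, centred on the median of the 47847 regions called in all 6 libraries. It was tested with limma 3.58.1 (R 4.3.3; empirical Bayes with trend) and Benjamini-Hochberg adjustment over those regions. Clusters were tested on the mean height of members called in all 6 libraries, over 2622 stitched groups with 3 or more. Lost members are in neither fit. Genes and transcripts came from GENCODE 44 and sequence from the hg38 genome, read with pysam 0.24.0. Both fits were run on simulated data with planted changes larger than most cluster changes reported here, and without a shift between libraries. Those runs do not cover smaller changes or the choice of centring. The members, gene lists and tests were chosen with earlier results of these data known. Clusters named by rule were the 10 with most members, the 10 lowest and 10 highest past an adjusted p of 0.05, the 5 with the largest share lost and those with a gene of the lists, and within them up to 3 changed and 3 lost members, with neighbours given for contrast. Clusters outside this rule are marked in the text as chosen after their values were seen. Clusters over repeated DNA were marked after their values were seen. Alternatives were uncentred height, ranks of fold enrichment and −log10 p, another centring, other gaps, sizes and call rules, each library left out, and a replicate block.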

Additional observations from a re-analysis of the deposited data

How the results depend on the processing

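The direction and call of the 37 fitted named clusters were the same when heights were centred on distal regions outside the dense clusters, and with a replicate block. Without centring, 171 members (12.6%) were lower and 315 (23.3%) higher, with a median change of 0.13, and 8 clusters (5.19%) were lower and 34 (22.1%) higher. By the rank of fold enrichment, 80 members (5.92%) were lower and 60 (4.44%) higher, and 4 clusters (2.60%) lower and 3 (1.95%) higher. By the rank of −log10 p, 22 clusters (14.3%) were lower and 10 (6.49%) higher, and no share over all groups was set beside these. Of the named clusters, FOXO6 (0.031), DYSF (0.13), ATOH8 (0.038), FSCN1 (0.0063), RGS3 (0.14), VPS37B (0.0060) and CCDC200 (0.039) turned positive without centring, and by the rank of fold enrichment TNNI1 (0.14), DYSF (0.011), ATOH8 (0.026) and FSCN1 (0.012) did, while ENSG00000258989 turned to −0.050. With a gap of 5 kb there were 2 clusters of 16 members, too few to describe tighter clusters. Of the 10 members tested 6 were lower and 0 higher, with a median change of −0.68. There were 2 lost members, and the 1 cluster that was fitted was lower. With a gap of 25 kb there were 695 clusters of 7910 members. Of 7060 tested members 1346 (19.1%) were lower and 942 (13.3%) higher, with a median of −0.0052. Lost members numbered 226 (2.86%), and 154 clusters (22.2%) were lower and 92 (13.3%) higher. From 6 members up there were 460 clusters of 3463 members. Of 3077 tested members 582 (18.9%) were lower and 407 (13.2%) higher, with a median of −0.019. Lost members numbered 97 (2.80%), and 98 clusters (21.4%) were lower and 70 (15.3%) higher. From 10 up there were 54 clusters of 661 members. Of 580 tested members 118 (20.3%) were lower and 80 (13.8%) higher, with a median of −0.035. Lost members numbered 25 (3.78%), and 14 clusters (25.9%) were lower and 7 (13.0%) higher. With calls in 2 of 3 vector libraries allowed, there were 277 clusters of 2740 members, with 431 lower, 283 higher, 143 lost, and 66 lower and 33 higher clusters. Under the same rule applied to the MyoD-deleted libraries, there were 221 clusters of 2196 members. Of 1789 tested members 307 (17.2%) were lower and 276 (15.4%) higher, and the median change was 0.0053. Of the members, 147 (6.69%) were called in no vector library. No share over all regions called in 3 of 3 MyoD-deleted libraries was set beside this. As units, 39 clusters (17.6%) were lower and 43 (19.5%) higher.

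Leaving out each library in turn gave 154 to 202 clusters, 1510 to 1969 members, median changes from −0.074 to −0.014 and 62 to 81 lost members. It gave 223 to 362 lower members (14.4% to 23.6% of those tested) and 108 to 214 higher (7.75% to 13.9%). As units, 26 to 50 clusters (14.1% to 28.2%) were lower and 11 to 22 (7.19% to 12.4%) higher. Lost members numbered 79 without vector replicate 2 and 81 without vector replicate 3, and higher members 108 without MyoD-deleted replicate 2. The change of the DYSF cluster ranged from −0.13 to 0.0088 and that of the CBLC cluster from −0.040 to 0.090. Same-numbered libraries did not deviate together (correlations −0.04, −0.20 and 0.09), and correlations of libraries with unlike numbers ranged from −0.23 to 0.26. With so few libraries this cannot exclude a pairing. With the replicate block 275 members (20.3%) were lower and 161 (11.9%) higher, and 36 clusters (23.4%) lower and 16 (10.4%) higher. Peaks carry no read totals, so lower and lost cannot be set against depth.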

Other observations

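The same rule applied to the MyoD-deleted libraries (calls in 3 of 3 of them) gave 221 dense clusters, of which 105 (47.5%) overlapped a dense cluster of the vector libraries, and 105 of the 155 vector clusters (67.7%) were overlapped. The clusters below were chosen after their values were seen, from those that overlapped none, by how many of their regions were called in no vector library. The SYPL1 cluster at chr7:106009239-106069267 held 11 such regions called in all MyoD-deleted libraries, of which 5 were called in no vector library and 3 in all of them. The ATP23 cluster at chr12:58334665-58444670 held 17, with 4 called in no vector library. The ANTXR1 cluster (chr2:69138146-69223066, 14 regions), the TNFRSF8 cluster (chr1:12067642-12162554, 13 regions) and the TPM1 cluster (chr15:62956729-63048877, 13 regions) each held 3. A further 4 clusters with 3, of 9 to 12 regions each, are not named. ANTXR1 encodes a receptor that binds collagen, TNFRSF8 the receptor CD30 and TPM1 a tropomyosin of muscle and of the cytoskeleton. This rule favours gains in the way that the vector rule favours losses, and the count of gains was given no test. No share over all regions was set beside it either, so whether these clusters gained more than other regions was not tested.

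Lower members were high peaks in the vector libraries, with a median vector height of 1.08 and a median local background of 5.52 times the lowest, against 0.04 and 4.42 for higher members and 0.25 and 4.23 for members past neither. The classes were themselves drawn from vector heights, so part of the contrast in height follows from how they were made. By location, 22.5% of tested intronic members were lower, 17.5% of exonic and 19.9% of those outside genes. Of the 125 tested members within 2 kb of the 5′ end of some protein-coding transcript 14.4% were lower, against 21.8% of the others. The first and last members of clusters were lower in 22.5% and higher in 10.9% of cases, and the inner ones in 20.7% and 13.6%.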
